A study of Mus musculus with 10 samples.

Results

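The 34 genes described here mostly encode the fatty acid beta-oxidation machinery of mitochondria and peroxisomes, from acyl-CoA synthetases to the last thiolase. Also included are the nuclear receptor Ppara and 3 acyl-CoA dehydrogenases of branched-chain amino acid breakdown, Ivd, Acad8 and Acadsb. The array named 18193 genes, 33 of the 34 among them. Each gene was represented by 1 probe set, selected on a measured value, the highest mean over the 10 arrays among the probe sets annotated to that symbol alone. Acsl1 had no such probe set and was not analysed here, and 32 genes passed the limit on dim genes and were tested. Eci1 lay under that limit of 4.59 log2 units, with a mean of 4.55 ± 0.27 in TAM and 4.55 ± 0.15 in OIL (SD, n = 5 each).

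The cells came from mouse T-ALL, an acute leukemia of immature T cells, induced here by ICN1, an activated form of the receptor NOTCH1. In the TAM group (5 arrays), leukemic secondary recipient mice had received tamoxifen, which deletes CnB1, now named Ppp3r1, which encodes the regulatory subunit of the phosphatase calcineurin. In the OIL group (5 arrays), the mice had received the corn oil carrier. Leukemias of both groups carried the ROSCreERT2 transgene, a tamoxifen-inducible Cre recombinase, and both copies of CnB1 as floxed alleles, and no age or strain is given in the sources used here. Marrow with over 50% leukemic cells was sorted on GFP or a comparable marker, and labelled targets came from 200 ng of total RNA. No group received tamoxifen without floxed CnB1, so an action of tamoxifen itself and the loss of CnB1 cannot be told apart.

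In beta-oxidation, a fatty acid is first joined to coenzyme A, carried into the mitochondrion as a carnitine ester, and then shortened in repeated cycles of dehydrogenation, hydration, a further dehydrogenation and thiolytic cleavage, each releasing acetyl-CoA. Flavoprotein carriers pass the electrons of the first step to the respiratory chain, and auxiliary isomerases and a reductase prepare unsaturated chains. Peroxisomes run a related cycle with their own enzymes for very long and branched chains, and Ppara activates many of these genes in tissues such as liver and heart.

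The stretches upstream of the genes below are shown because Acadvl, Hadh and Eci2 were among the 5 genes called lower in TAM once arrays were paired by label. No such stretch was available for Acaa2 and Acat1, the others of the 5. The stretches shown were taken from RefSeq (GRCm38.p6) and give the 250 bases before the annotated start on the minus strand, read 5′ to 3′. Acadvl lies at chr11:70015429-70015678, Hadh at chr3:131272102-131272351 and Eci2 at chr13:34994145-34994394. Capitals mark the nuclear receptor half-site AGGTCA in Acadvl and the CCAAT box, CCAAT, in Hadh and Eci2.
Acadvl: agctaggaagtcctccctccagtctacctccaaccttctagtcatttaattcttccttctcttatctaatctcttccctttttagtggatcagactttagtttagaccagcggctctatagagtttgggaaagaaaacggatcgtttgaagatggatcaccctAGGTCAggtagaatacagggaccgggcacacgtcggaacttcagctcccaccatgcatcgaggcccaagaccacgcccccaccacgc
Hadh: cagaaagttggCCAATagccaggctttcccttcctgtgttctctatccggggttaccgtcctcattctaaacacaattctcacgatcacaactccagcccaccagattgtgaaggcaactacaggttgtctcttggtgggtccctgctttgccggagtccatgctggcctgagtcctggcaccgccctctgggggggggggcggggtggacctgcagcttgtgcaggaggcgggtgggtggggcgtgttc
Eci2: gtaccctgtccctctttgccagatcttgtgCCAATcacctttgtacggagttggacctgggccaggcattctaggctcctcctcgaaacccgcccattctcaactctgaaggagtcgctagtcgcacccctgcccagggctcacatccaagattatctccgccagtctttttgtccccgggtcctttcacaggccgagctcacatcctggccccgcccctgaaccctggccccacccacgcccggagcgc
These letters were searched on both strands of 29 such windows from 28 of the genes. AGGTCA occurred in 13.8% of them and in 14% of 32851 windows of all genes. CCAAT occurred in 44.8%, against 33.8% of all windows. The core of sites for NFAT, the factor that calcineurin activates, searched as GGAAAA, occurred in 20.7%, against 20.4% of all windows, and in none of the sequences printed above. The E-box CACGTG occurred in none of the 29 windows and in 6.02% of all windows. These matches describe letters only. Matches of different motifs may share letters at their ends, as TTTTCC, the reverse complement of GGAAAA, can with CCAAT.

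Across these genes, transcripts were mostly lower in TAM by small amounts. The genes were chosen with earlier results of these data known, so the shares below describe them and give no independent support. Of the 32 genes tested, 29 had a lower mean in TAM and 3 a higher one, with a median difference of -0.19 log2 units (TAM minus OIL). Over all 12735 genes tested, 59.0% had a lower mean in TAM and the median difference was -0.03. With limma and no pairing, 0 of the 32 passed an adjusted p of 0.05 (background 0.471%), while 12 had an unadjusted p under 0.05, all of them lower in TAM, where 7.75% of all genes were lower at that level.

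The 2 groups use 5 labels in common, which are 204, 206, F3, F3.1 and F3.2. With the label as a block, limma called 5 genes: Acaa2, Hadh, Acadvl, Acat1 and Eci2. All 5 were lower in TAM, beside a background of 1.74% called lower and 3.38% called in either direction. On simulated data, 7.48% of the calls of this fit were false, above the threshold of 0.05. The count fell to 0 without label pair F3.1, to 1 (Acaa2) without 204, 206 or F3, and to 4 without F3.2 (Acaa2, Hadh, Acadvl and Ivd), and Acat1 and Eci2 passed in none of these fits. At an unadjusted p under 0.05 the block gave 16 of the 32, all lower, with 13.0% of all genes lower at that level. With only the label family (204 and 206, or the 3 F3 labels) as a block, limma called Acaa2 and Hadh, beside a background of 1.74% called in either direction.

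Within the 5 label pairs, 18 of the 32 genes were lower in TAM in every pair, and 0 were higher in every pair. Of all genes, 13.5% were lower in every pair. In the marrow-derived cells profiled here, fewer cells of a type and less RNA per cell cannot be told apart. The values below are log2 units throughout, and 5 values in a row follow this order of labels: 204, 206, F3.1, F3.2, F3.

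**Figure D1:**
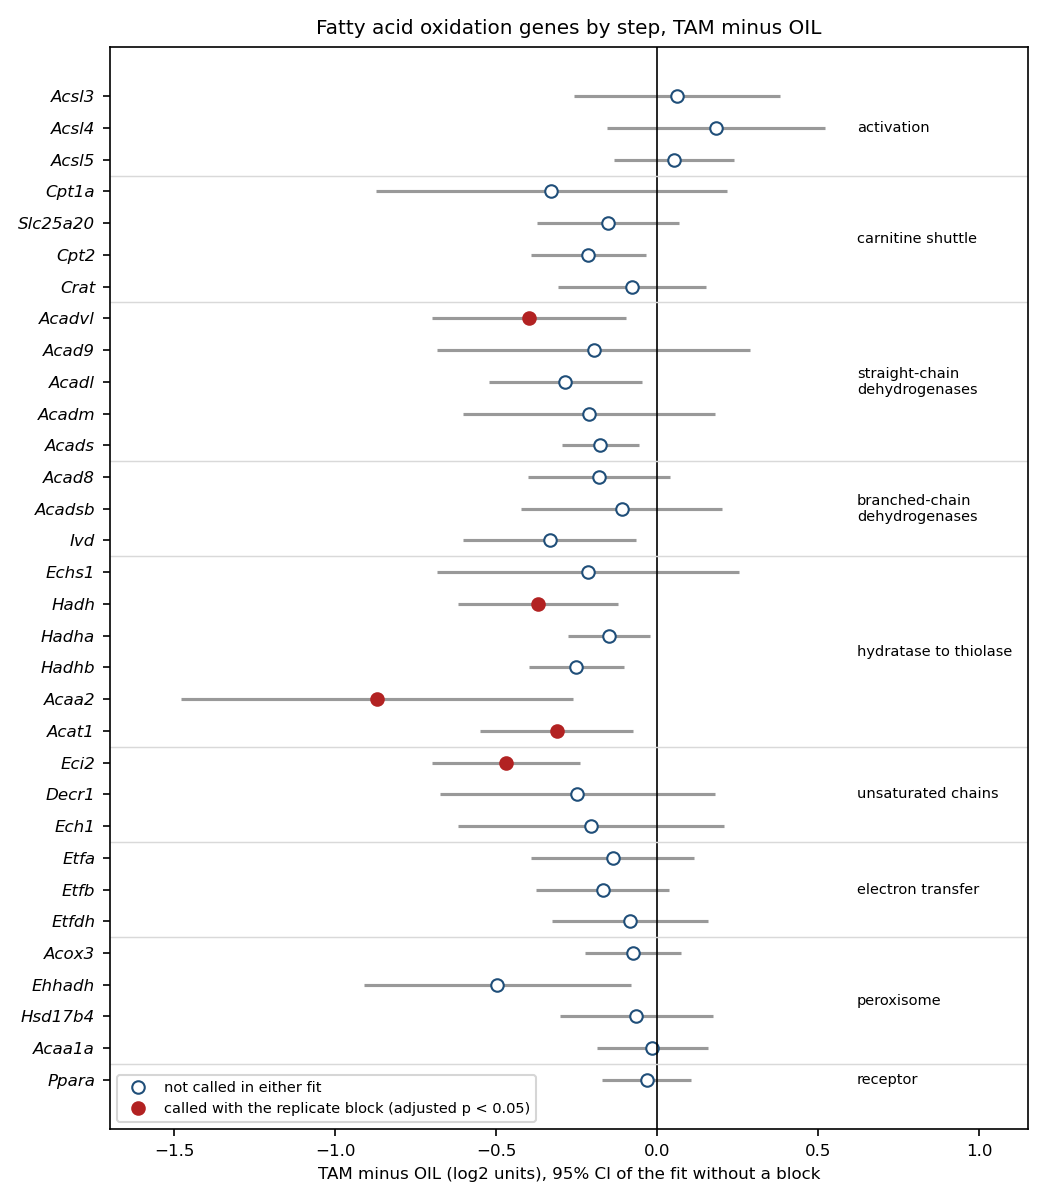
TAM minus OIL difference (log2 units, x axis) of each tested gene, grouped by pathway step (y axis), with its 95% confidence interval from limma without pairing and filled points for genes called with the replicate block. Most points lie left of 0, with a median of -0.19, Acaa2 lies farthest left at -0.87, and the 3 synthetases lie right of 0.

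The acyl-CoA synthetases, which activate fatty acids, were the step whose tested members were all higher in TAM by mean, and none passed the test. Acsl4, which prefers arachidonate-type chains, was 8.89, 8.40, 9.06, 8.47 and 8.49 in TAM, against 8.19, 8.41, 8.62, 8.79 and 8.38 in OIL. The groups overlapped: TAM was above OIL under labels 204, F3.1 and F3, close to it under 206, and below it under F3.2. The difference was 0.18 (95% interval -0.16 to 0.52, limma adjusted p = 0.68). Acsl3, an enzyme of endoplasmic reticulum and lipid droplets, differed by 0.06 (limma adjusted p = 0.903), and Acsl5 by 0.05 (limma adjusted p = 0.846).

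The carnitine shuttle moves long acyl chains across the mitochondrial membranes, and its 4 genes differed by -0.33 to -0.08, with a median of -0.18 and none called. Cpt1a, the outer-membrane acyltransferase that malonyl-CoA inhibits, was 9.20, 8.69, 8.34, 8.29 and 8.96 in TAM, against 9.09, 8.62, 8.83, 8.76 and 9.82 in OIL. TAM was lower under the 3 F3 labels and slightly higher under 204 and 206, so that the mean difference was -0.61 in the F3 labels and 0.09 in 204 and 206. Pooled, Cpt1a differed by -0.33 (95% interval -0.87 to 0.22, limma adjusted p = 0.629). Cpt2, the inner-membrane acyltransferase that restores acyl-CoA, was lower in all 5 pairs, with a mean difference of -0.21 (95% interval -0.39 to -0.04, limma adjusted p = 0.29). The translocase Slc25a20 differed by -0.15 (limma adjusted p = 0.576) and Crat, which handles short chains, by -0.08 (limma adjusted p = 0.805).

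The straight-chain acyl-CoA dehydrogenases carry out the first oxidation of each cycle, and all 5 had lower means in TAM, with differences of -0.40 to -0.18 and a median of -0.21. Acadvl, the very long-chain enzyme of the inner membrane, was 8.15, 8.12, 7.51, 8.05 and 7.90 in TAM, against 8.58, 8.45, 8.07, 8.31 and 8.31 in OIL. TAM was lower in every pair, although the 2 highest TAM arrays lay above the lowest OIL array. The means were 7.95 ± 0.26 in TAM and 8.34 ± 0.19 in OIL (SD, n = 5 each), a 1.32-fold lower level in TAM. Acadvl fell in the limma fit with the replicate block (adjusted p = 0.0249) and did not pass without it (limma adjusted p = 0.245).

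Acads, the short-chain enzyme, differed little and without overlap: 8.43, 8.39, 8.53, 8.46 and 8.51 in TAM, against 8.63, 8.61, 8.65, 8.68 and 8.65 in OIL. The highest TAM array lay below the lowest OIL array, and the difference of -0.18 (95% interval -0.30 to -0.06) did not pass the test (limma adjusted p = 0.211, and 0.12 with the replicate block). Acads, Hadhb and Eci2 were the 3 genes of the 32 without overlap, where 3.27% of all genes had none. Acads and Hadhb are given in full because of that, a choice made after their values were seen.

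Acadl, a long-chain enzyme, differed by -0.29 and was lower in all 5 pairs (limma adjusted p = 0.289). Acad9, which also takes part in the assembly of respiratory complex I, differed by -0.20 and was likewise lower in every pair (limma adjusted p = 0.761). Acadm, the medium-chain enzyme, differed by -0.21 and was lower in 4 of 5 pairs (limma adjusted p = 0.678).

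The branched-chain acyl-CoA dehydrogenases belong to the breakdown of leucine, isoleucine and valine. Ivd, the isovaleryl-CoA dehydrogenase of leucine breakdown, was 7.73, 7.60, 7.52, 7.80 and 7.39 in TAM, against 8.32, 7.996, 7.85, 7.85 and 7.71 in OIL. TAM was lower in every pair, and only the F3 array of OIL lay within the range of TAM. The difference of -0.33 (95% interval -0.60 to -0.07) did not pass (limma adjusted p = 0.274, and 0.073 with the replicate block). Acad8 of valine breakdown differed by -0.18 (limma adjusted p = 0.49) and Acadsb of isoleucine breakdown by -0.11 (limma adjusted p = 0.797).

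The mitochondrial hydratase, hydroxyacyl dehydrogenase and thiolase step held 3 of the 5 calls, and each of its 6 genes was lower in TAM in every pair, with a median difference of -0.28. Acaa2, the mitochondrial ketoacyl-CoA thiolase that cleaves off acetyl-CoA, was 10.01, 9.79, 9.21, 8.95 and 9.47 in TAM, against 11.29, 10.37, 9.93, 10.06 and 10.14 in OIL. TAM was lower in every pair, and only the 204 array of TAM reached into the range of OIL. The means were 9.49 ± 0.43 in TAM and 10.36 ± 0.55 in OIL (SD, n = 5 each), a difference of -0.87 (95% interval -1.48 to -0.26), or 1.83-fold lower in TAM.

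Acaa2 fell with the replicate block (limma adjusted p = 0.0131) and with the label family as a block (limma adjusted p = 0.0325), not without a block (limma adjusted p = 0.219). Its other 2 probe sets differed by -0.84 and -0.87, the latter with wide spread (SD 1.09 in TAM and 1.03 in OIL). The difference was -0.93 in labels 204 and 206 and -0.83 in the F3 labels.

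Hadh, the hydroxyacyl-CoA dehydrogenase for short and medium chains, was 11.49, 11.51, 11.04, 11.25 and 11.26 in TAM, against 11.78, 11.91, 11.49, 11.64 and 11.58 in OIL. Every TAM array was below its OIL partner, and the 204 and 206 arrays of TAM were slightly above the lowest OIL array, F3.1. Hadh fell by 0.37 on the log2 scale, 1.29-fold, with the replicate block (limma adjusted p = 0.0215) and with the family block (limma adjusted p = 0.0289). Without a block its adjusted p was 0.209 in limma.

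Acat1, the thiolase of acetoacetyl-CoA, also used in ketone body and isoleucine breakdown, was 10.02, 10.04, 9.73, 9.82 and 9.91 in TAM, against 10.52, 10.30, 9.99, 10.06 and 10.21 in OIL. TAM was lower in each pair, with some overlap between the 204 and 206 arrays of TAM and the F3.1 array of OIL. Acat1 fell by 0.31 on the log2 scale, 1.24-fold, with the replicate block (limma adjusted p = 0.0456), not with the family block (limma adjusted p = 0.0626) and not without one (limma adjusted p = 0.251).

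Hadha and Hadhb encode the trifunctional protein, which joins these activities for long chains. Hadhb was 10.34, 10.37, 10.29, 10.26 and 10.49 in TAM, against 10.62, 10.50, 10.59, 10.69 and 10.62 in OIL. All TAM arrays lay below all OIL arrays, by a difference of -0.25 (95% interval -0.40 to -0.11) that did not pass (limma adjusted p = 0.145, and 0.0866 with the replicate block). Its other probe sets differed by -0.16 and 0.18. Hadha differed by -0.15 (limma adjusted p = 0.301) and Echs1, the short-chain hydratase, by -0.21 (limma adjusted p = 0.728).

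**Figure D2:**
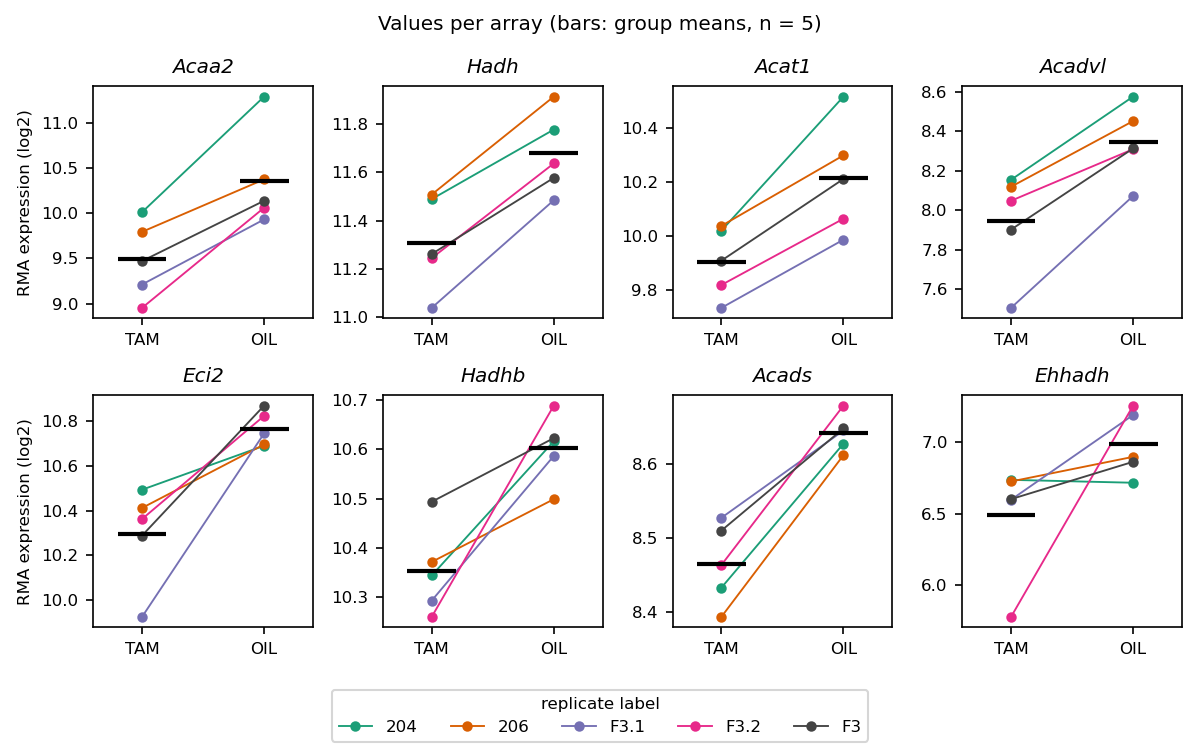
Log2 expression values (y axis, own scale in each panel) of 8 genes in each TAM array (left) and OIL array (right), with lines joining arrays of the same label and black bars at the group means. The TAM point lies below its OIL partner in every pair of Acaa2, Hadh, Acat1, Acadvl, Eci2, Hadhb and Acads, and Ehhadh shows a single low TAM array at 5.78.

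The auxiliary enzymes for unsaturated chains had 3 tested genes, all lower in TAM in every pair. Eci2, an enoyl-CoA isomerase found in mitochondria and peroxisomes, was 10.49, 10.41, 9.93, 10.36 and 10.29 in TAM, against 10.69, 10.70, 10.75, 10.82 and 10.87 in OIL. The groups did not overlap, and the F3.1 array of TAM was the lowest of all 10. The means were 10.30 ± 0.22 in TAM and 10.77 ± 0.08 in OIL (SD, n = 5 each), 1.38-fold lower in TAM.

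Eci2 fell with the replicate block (limma adjusted p = 0.0492), close to the threshold, and did not pass without a block (limma adjusted p = 0.0886) or with the family block (limma adjusted p = 0.0551). Decr1, the dienoyl-CoA reductase, differed by -0.25 (limma adjusted p = 0.648, and 0.074 with the replicate block). Ech1, a dienoyl-CoA isomerase, differed by -0.21 (limma adjusted p = 0.704).

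The electron transfer flavoprotein, which takes electrons from the acyl-CoA dehydrogenases, differed least among the mitochondrial steps that were lower, with a median of -0.14. Etfb, its beta subunit, was 9.71, 9.64, 9.52, 9.39 and 9.52 in TAM, against 9.96, 9.68, 9.51, 9.75 and 9.75 in OIL. TAM was lower in 4 pairs and level with OIL under F3.1, and the groups overlapped. The difference was -0.17 (95% interval -0.38 to 0.04, limma adjusted p = 0.49). Etfa, the alpha subunit, differed by -0.14 (limma adjusted p = 0.674) and Etfdh, its oxidoreductase at the membrane, by -0.08 (limma adjusted p = 0.8).

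The 4 peroxisomal genes had a median difference of -0.07, and none was called. Ehhadh, the L-bifunctional enzyme, was 6.74, 6.72, 6.60, 5.78 and 6.60 in TAM, against 6.72, 6.90, 7.19, 7.26 and 6.86 in OIL. TAM was lowest relative to OIL under F3.1 and F3.2 and near OIL under 204. The difference of -0.50 (95% interval -0.91 to -0.08) did not pass (limma adjusted p = 0.289, and 0.206 with the replicate block), and without the F3.2 array of TAM it was -0.32.

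Hsd17b4, the D-bifunctional enzyme, differed by -0.06 (limma adjusted p = 0.849). Its other probe set, nearly as bright, differed by 0.05. Acaa1a, a peroxisomal thiolase, differed by -0.02 (limma adjusted p = 0.962). Acox3, an acyl-CoA oxidase for branched chains, was lower in all 5 pairs, with a mean difference of -0.08 (limma adjusted p = 0.695). Ppara itself was 5.10, 5.13, 5.20, 5.15 and 5.07 in TAM, against 5.08, 5.22, 5.09, 5.14 and 5.29 in OIL, with wide overlap and a difference of -0.03 (95% interval -0.17 to 0.11, limma adjusted p = 0.872).

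**Figure D3:**
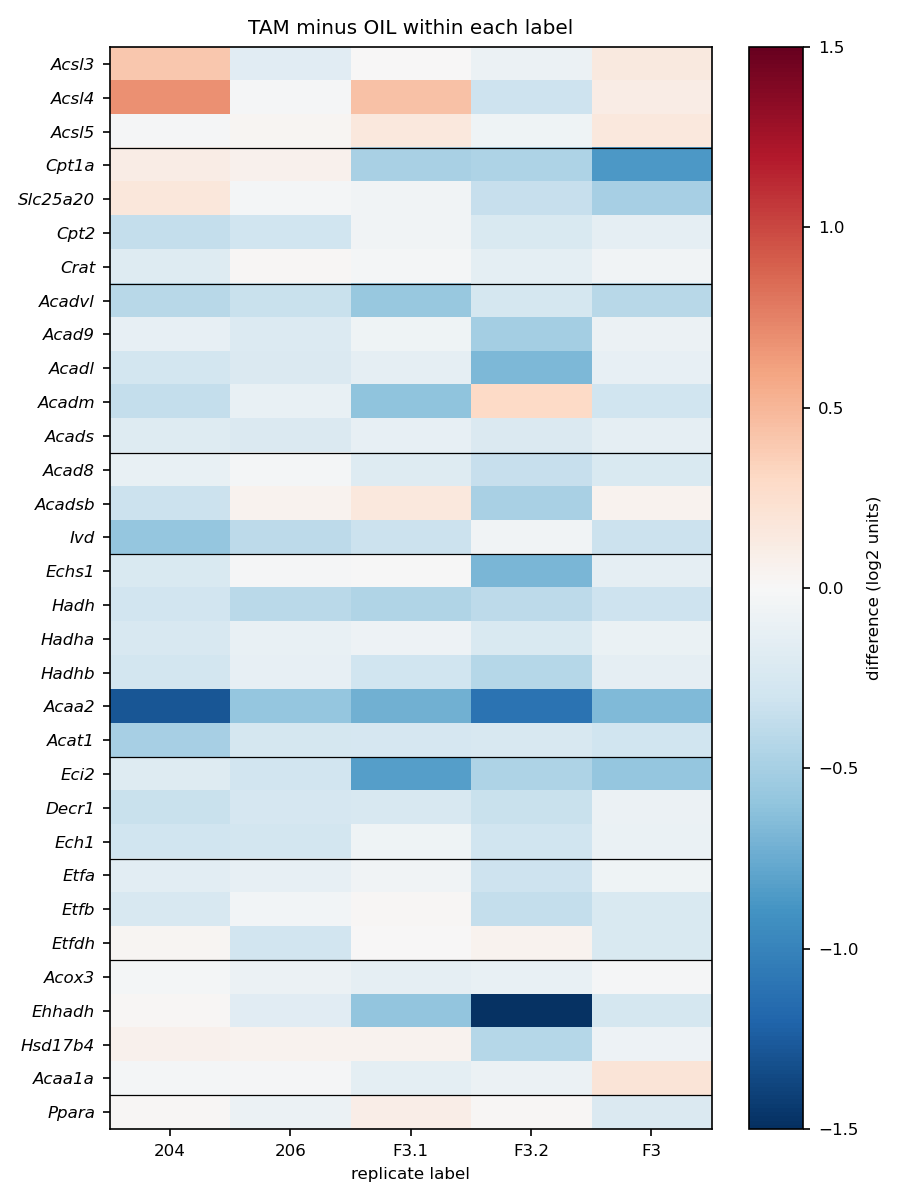
TAM minus OIL difference within each label pair (columns, log2 units as colour from -1.5 to 1.5) for each tested gene (rows, by pathway step). The 6 genes of the hydratase to thiolase step are lower in all 5 columns, as are 18 of the 32 genes in all.

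The probe sets of the 33 measured genes numbered 63, of which 55 were above the dim limit. Of these 55, 47 were lower in TAM by mean and 8 were higher. Among the 23 that had not been selected to represent a gene, 18 were lower. For 13 genes, Acadvl and Eci2 among them, 1 probe set was all there was.

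The label families differed in the level of these genes in both groups. The mean deviation of the 32 genes from their own means was 0.069, -0.0068, -0.170, -0.286 and -0.117 in TAM, against 0.241, 0.146, 0.0032, 0.0514 and 0.0701 in OIL. It was highest in 204 and lower in the F3 labels in both groups, and TAM lay below OIL in each pair. In a limma fit with family and treatment, added after the data were seen, 8 genes were called higher in 204 and 206, beside 6.75% of all genes. They were Acaa2, Echs1, Acad9, Decr1, Ech1, Hadh, Acat1 and Acad8. Acaa2 differed most between the families, by 0.74 (limma adjusted p = 0.0195).

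Within the families, the median TAM difference over the 32 genes was -0.14 in labels 204 and 206 and -0.19 in the F3 labels, with 26 genes lower in the first and 29 in the second. No interaction of treatment with family passed in limma for any of the 32 genes (adjusted p = 0.998 for each), and 0 of them had an unadjusted p under 0.05, beside 2.72% of all genes.

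**Figure D4:**
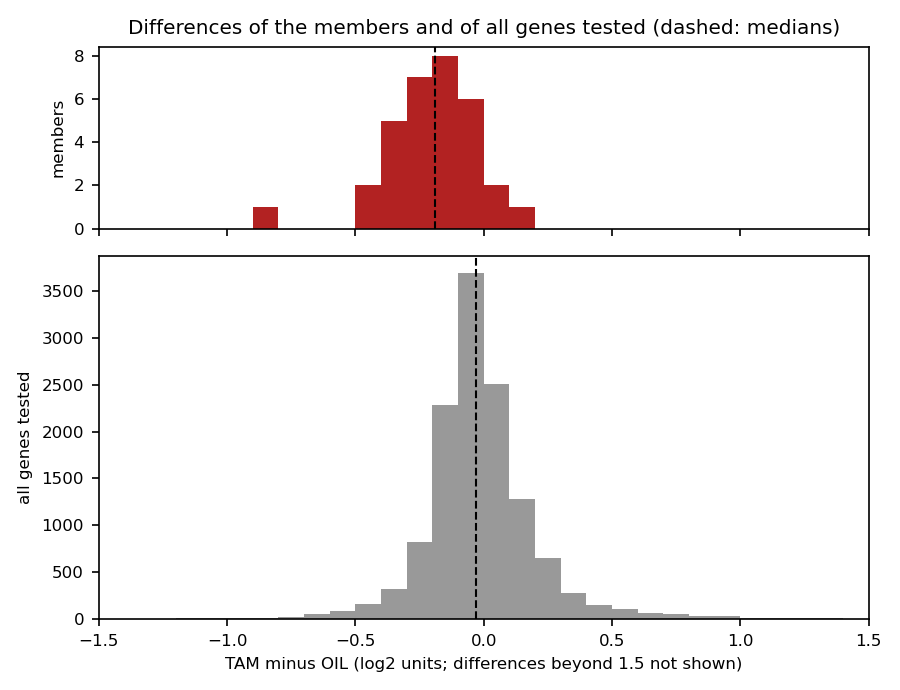
Number of genes (y axis) by TAM minus OIL difference (x axis, log2 units) for the 32 genes (upper panel) and for all 12735 genes tested (lower panel), without differences beyond 1.5. Dashed lines mark the medians, -0.19 for the 32 genes and -0.03 for all genes.

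Other genes of fatty acid handling were described from lists that hold 58 genes, of which 39 were tested. With limma, 0 were called with or without the replicate block. At an unadjusted p under 0.05, 4 of the 39 were lower and 2 higher in TAM, where 7.75% of all genes were lower and 5.26% higher. With the replicate block 10 were lower and 3 higher, where 13.0% of all genes were lower and 9.37% higher. The median difference of the 39 was -0.13, and 31 had a lower mean in TAM.

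By list, all 12 further genes for acyl-CoA synthetases, carnitine handling and mitochondrial enzymes had a lower mean in TAM. Their median was -0.22. Of 12 further peroxisomal genes, 10 had a lower mean, with a median of -0.17. Of 7 partners and targets of the PPAR receptors, 5 had a lower mean, with a median of -0.05. The 4 genes of malonyl-CoA control and the 4 of fatty acid uptake were evenly split, each with a median of 0.02. Ppard, the ubiquitous PPAR receptor, averaged 6.03 ± 0.10 in TAM and 5.84 ± 0.06 in OIL (SD, n = 5 each) and was higher in all 5 pairs, which did not pass (limma adjusted p = 0.261). Pparg, the receptor of adipocytes (4.31 in TAM, 4.18 in OIL), and the coactivator Ppargc1a (3.59 in TAM, 3.65 in OIL) were under the dim limit. Cpt1b was not analysed here.

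The arrays were also checked against the deleted gene and the markers of other cells. A probe set of Ppp3r1 averaged 3.26 ± 0.21 in TAM, under the dim limit, and 5.32 ± 0.58 in OIL (SD, n = 5 each), so no fold is given. Its other probe set averaged 9.67 ± 0.04 in TAM and 9.80 ± 0.09 in OIL (SD, n = 5 each). Whether these probes lie in deleted sequence was not examined.

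Of 11 T lineage markers 10 were measured, all above the dim limit, with array means of 10.62 to 10.97 in TAM and 10.58 to 11.20 in OIL. By mean, 6 of the 10 were higher in TAM and 4 lower, and limma called 0 without a block. With the replicate block it called Cd2, an adhesion receptor of T cells, which fell by 1.00 on the log2 scale (limma adjusted p = 0.027, and 0.059 without the block). The genes of T cell receptor complex chains Cd3e and Cd3g were higher in TAM in all 5 pairs, by 0.33 and 0.14, and did not pass (limma adjusted p = 0.348 for Cd3e and 0.623 for Cd3g). Cd3d, another such chain, differed by -0.02 and was higher in 2 pairs and lower in 3 (limma adjusted p = 0.959). Thy1 differed by -0.14 and was lower in 4 of 5 pairs (limma adjusted p = 0.426).

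Of the markers of other cells that were tested, limma called 0 with or without the replicate block. All 7 myeloid markers were measured, 5 of them above the dim limit, with array means of 5.28 to 6.78 in TAM and 4.75 to 6.29 in OIL. By mean, 4 of the 7 were higher in TAM and 3 lower. Itgam, under the dim limit, was higher in TAM in all 5 pairs, by 0.60. Lyz2 was higher in 4 of 5 pairs, by 0.40 (limma adjusted p = 0.704, and 0.155 with the replicate block). Elane and Csf1r were each lower in 4 of 5 pairs, by 0.09 and 0.10. S100a8, a granulocyte protein, varied widely, at 7.39, 6.55, 7.63, 9.11 and 10.07 in TAM, against 5.06, 6.94, 8.27, 6.69 and 9.11 in OIL, and was higher in TAM in 3 of 5 pairs.

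The 7 stromal and endothelial markers, 4 above the limit, had means of 4.78 to 5.61 in TAM and 4.78 to 5.39 in OIL. Among them the collagen gene Col1a2 stood out in the 206 arrays, at 10.24 in TAM and 9.29 in OIL, where its other arrays ran no higher than 6.55 in TAM and 6.22 in OIL. Of 5 B cell markers 4 were measured and 1 was above the limit, with array means of 4.30 to 4.44 in TAM and 4.39 to 4.68 in OIL. Of 6 erythroid markers 4 were measured and 2 were above the limit, with means of 4.54 to 4.74 in TAM and 4.58 to 4.81 in OIL. Of 5 adipocyte markers 3 were measured and 1 was above the limit, with means of 4.08 to 4.36 in TAM and 4.28 to 4.42 in OIL, and Adipoq was under the limit at 2.62 in TAM and 2.73 in OIL. By mean, all 4 measured B cell markers, all 4 erythroid markers and all 3 adipocyte markers were lower in TAM. Of the 7 stromal and endothelial markers, 5 were higher in TAM and 2 lower. The part of these other cells in the values of the oxidation genes was not tested.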

How the data were processed

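Sorted leukemic cells were measured on 10 expression arrays, 5 TAM and 5 OIL. The authors deposited log2 values per probe set. Per the submitters' processing notes they used RMA, with no version stated in the sources used here. RMA includes quantile normalization, so a shift shared by all genes cannot be seen. Values of the 45101 probe sets ran from 1.74 to 14.02, with array medians of 5.07 to 5.13. Precision is limited by the number of arrays.

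Gene names came from the platform annotation: 34958 probe sets carried 1 symbol, and those with several (932) or none (9211) were left unnamed. Names were matched by Entrez ID to RefSeq for 34754. Of 18193 genes, the dimmest 30% by mean were left out, which left 12735. The groups were compared with limma 3.58.1 (functions lmFit and eBayes; R 4.3.3, data.table, version 1.17.8) and Benjamini-Hochberg adjustment over all genes tested. The fits were tested on simulated data, where the share of false calls lay under the threshold of 0.05 without a block and above it with the replicate block. The shares were 0.451% and 7.48%. Of simulated differences of 0.5 log2 units, 39.3% were recovered without a block and 62.7% with it.

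Replicate labels came from the sample descriptions, and the number after the hyphen in F3.1 and F3.2, which differs between groups, was dropped. Deviations of same-labelled arrays from their group means correlated at 0.763 (204), 0.745 (206), 0.585 (F3.1), 0.184 (F3.2) and 0.804 (F3), all above the 0.1 set for pairing. Arrays of the same family may share such deviations, so passing 0.1 does not show that same-labelled arrays are partners. For 7 of 10 arrays the best match in the other group carried the same label. The pairing was weakest for F3.2. By correlation of the log2 values, OIL F3.2 was closer to TAM F3.1 (0.990) than to TAM F3.2 (0.983). TAM F3.2 was closer to OIL F3 (0.987) than to OIL F3.2. Fits with the label, or its family, as a block are therefore given beside the unpaired one. The labels do not say that replicates were separate mice, so p-values measure the spread between these samples.

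The genes and lists were chosen with earlier results of these data known, so a shared direction is a description and no independent support. Per-array values were given for genes called in either fit and, in each step without a call, for the largest difference in each direction, and exceptions are named as such. Alternatives were other filters, scalings, probe set rules, eBayes settings, arrays left out and OIL F3.1 averaged with OIL F3.2, the 2 most alike arrays.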

Additional observations from a re-analysis of the deposited data

Results flagged for a closer look

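In 64 groups of 5 arrays examined (32 genes, each in TAM and in OIL), 2 held an array far from the others of its group, and chance gives about 1 in 20 groups. The F3.2 array of TAM had 5.78 log2 units for Ehhadh, the peroxisomal L-bifunctional enzyme, where the nearest TAM array had 6.60. The F3 array of OIL had 6.05 log2 units for Acox3, the peroxisomal branched-chain oxidase, where the nearest OIL array had 5.94. Neither gene was called in limma, and the cause of either value was not tested.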

How the results depend on the processing

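In limma without a block, 0 of the genes tested (32 in the main fit) were called lower in TAM under each filter, scaling, probe set rule and eBayes setting tried. The same held without each array in turn, and with OIL F3.1 and F3.2 averaged. The replicate block gave 5 and the family block 2. The replicate block without 1 label pair at a time gave 0 to 4: it gave 0 without F3.1, 4 without F3.2, and 1 without each of 204, 206 and F3. In those fits the adjusted p of Acaa2 was 0.0242 to 0.0533, passing in each but that without F3.1. Hadh and Acadvl passed only without F3.2, where Ivd passed too, and Acat1 and Eci2 in none. The count of genes with a lower mean was 27 to 30 over all settings, and the median difference -0.24 to -0.13. The number tested moved with the filter: 30 of 33 were lower with no filter, and 27 of 30 with the dimmest 50% left out. Among the other pathway genes, those lower at an unadjusted p under 0.05 numbered 4, against 10 with the replicate block and 9 with the family block. Signs turned only for differences that were not called. Hadhb was 0.18 by its probe set of highest variance. Acaa1a was -0.055 to 0.026 over the fits that left out 1 array, above 0 when OIL F3.1 (0.026), OIL F3.2 (0.012) or TAM 204 (0.014) was left out. It was 0.019 with those OIL arrays averaged, and with the replicate block 0.016 less pair F3.1 and 0.0028 less pair F3.2. Acsl3 was -0.064 to 0.11 over such fits, lowest without TAM 204, and -0.026 with the block less pair 204. Hsd17b4 was 0.014 without TAM F3.2 and 0.027 with the block less that pair, and Ppara 0.012 with the block less pair F3. The causes of these shifts were not tested.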

Other observations

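The largest positive and the largest negative difference among the other fatty acid genes, named after their values were seen, were those of Fabp5 and Slc22a5. Fabp5, a cytosolic fatty acid binding protein, averaged 13.05 ± 0.24 log2 units in TAM and 12.30 ± 0.38 in OIL (SD, n = 5 each), a difference of 0.76 (limma adjusted p = 0.111, and 0.057 with the replicate block). Slc22a5, the carnitine transporter of the cell surface, averaged 8.57 in TAM and 8.92 in OIL, a difference of -0.35 (limma adjusted p = 0.099, and 0.071 with the replicate block).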
